A study of Saccharomyces cerevisiae with 24 samples.

Results

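The genes described here are 10 of budding yeast (Saccharomyces cerevisiae) that make, break down or regulate glycogen, out of 7126 features measured. They were chosen by name and systematic name, and all 10 were found: PGM2 (YMR105C) and UGP1 (YKL035W), GLG1 (YKR058W) and GLG2 (YJL137C), GSY1 (YFR015C) and GSY2 (YLR258W), GLC3 (YEL011W), GPH1 (YPR160W) and GDB1 (YPR184W), and GAC1 (YOR178C). RNA was sequenced from 4 strains before (0 min) and 10 and 20 min after 0.4 M NaCl was added to mid-log cultures in synthetic complete medium, with 2 libraries for each of the 12 groups. All 4 strains, the wild type (WT) included, derive from W303-1a and carry sho1::HIS3, which disrupts the osmosensor of the other branch of the pathway, and an STL1-promoter reporter at leu2 (leu2::LEU2-pSTL1-qVenus). WT is thus a sho1 strain, in which the Sln1 branch remains. The mutants carry amino acid changes in the Sln1-Ypd1 phosphorelay, and the strains were made by replacing YPD1 with a cassette marked by TRP1 and HPH and SLN1 with one marked by URA3 and KanMX. In all 3 of them Sln1 carries the changes E1101K, E1110K and S1179D. Beside these, the Ypd1 of Mut1 is M20D and that of Mut2 is M20D and M92K, while Mut3 combines I13D in Ypd1 with a further Sln1 change, L1109K. The labels do not say how many clones stand behind a strain, nor whether the 2 libraries of a group came from separate cultures, so the p-values measure the spread between these libraries, which may be technical.

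Glycogen is a branched glucose polymer that yeast stores as a carbon and energy reserve. Glucose 6-phosphate is turned to glucose 1-phosphate by phosphoglucomutase (Pgm2) and to UDP-glucose by UDP-glucose pyrophosphorylase (Ugp1). Glycogenin (Glg1, Glg2) primes the chain, glycogen synthase (Gsy1, Gsy2) extends it and the branching enzyme (Glc3) branches it. Glycogen phosphorylase (Gph1) releases glucose 1-phosphate, the debranching enzyme (Gdb1) removes the branches, and Gac1 targets the phosphatase Glc7 to glycogen synthase and so favours its active form. In hyperosmotic medium the kinase Hog1 is activated when the Sln1 phosphorelay is switched off, and many stress genes are transcribed through Msn2 and Msn4, which bind the stress response element.

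That element, spelled AGGGG and also read on the other strand (where it appears as CCCCT), was searched for in the 500 bases before the coding start of 9 members (all but GPH1), since most members rose together in salt. It was found in 7 of these 9 upstream regions, with 5 matches for PGM2, 4 for UGP1, 3 for GLC3, 2 each for GSY1, GSY2 and GLG2, and 1 for GDB1. GLG1 and GAC1 had none. Among 6000 upstream regions of the same length, 34.1% held at least 1 match and 8.1% at least 2. The sequence TGACGT, searched on both strands and not overlapping the other motif, the core bound by factors of the Sko1 type, was found in none of the 9 and in 13.5% of the 6000. The matches in PGM2, GSY1 and GSY2, on whose values many of the results turn, are shown with 30 bases of the RefSeq R64 (sacCer3) genome, read 5′ to 3′ on the gene's strand, with the match in capitals. A match is a description of the letters only. None of these members overlaps another annotated gene.
PGM2, 406 bases before the start, chrXIII:477996-478025, minus strand: acacacgctgctgCCCCTgagcttgcgagc
PGM2, 359 bases before, chrXIII:477949-477978, minus strand: acttgttctttctAGGGGggagaggcccaa
PGM2, 305 bases before, chrXIII:477895-477924, minus strand: ggagctcacgaaaAGGGGtggtgtcgcgca
PGM2, 259 bases before, chrXIII:477849-477878, minus strand: gaacttacgtgaaAGGGGacgttatacttt
PGM2, 216 bases before, chrXIII:477806-477835, minus strand: tccaggaacaaacAGGGGttgaaaagtgta
GSY1, 467 bases before, chrVI:176842-176871, minus strand: aacggaatctttcAGGGGcacaatttcccg
GSY1, 332 bases before, chrVI:176707-176736, minus strand: cccacaagtaataCCCCTtggaggattttt
GSY2, 377 bases before, chrXII:660326-660355, plus strand: tgacactggactgCCCCTggattagcgacc
GSY2, 196 bases before, chrXII:660507-660536, plus strand: ggaacgcaattcaCCCCTttctttcttatg

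**Figure D1:**
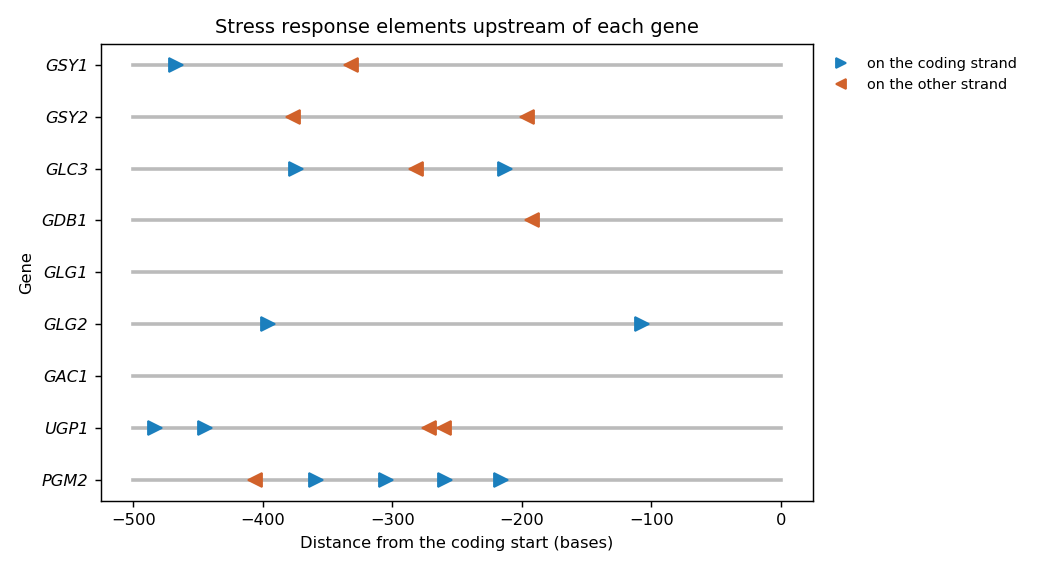
Position of each AGGGG or CCCCT match in the 500 bases before the coding start of 9 of the genes, by strand (x axis, bases before the start; 1 row for each gene). PGM2 has 5 matches and UGP1 4, while GLG1 and GAC1 have none.

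Values are FPKM, a measure of fragments scaled by transcript length and library size, as deposited. The tests were run on log2(FPKM + 1) in limma over the 6359 features whose mean over the libraries reached 1 FPKM, and all 10 members passed that filter. Calls were made where the adjusted p was under 0.05. A log2 change is given with its SE, and a fold is taken from that change, so that it understates the change of genes of low FPKM. The trailing 0 and 1 of the deposited columns are used as library names. The libraries of each number deviated together, so a second fit in which the library number was a block, the paired fit, is given with the members it adds. It ended no call of a member. SHO1 was listed at 0 in all 24 libraries, and SLN1 (12.4 to 25.0 FPKM) and YPD1 (32.7 to 86.6 FPKM) were present in all. Markers of haploid a cells were present throughout (summed 2490 to 32600 FPKM), and of the markers of the other mating type STE3 and MFALPHA1 had medians under 1 FPKM, while MFALPHA2 (11.3 to 30 FPKM) and SAG1 (10.1 to 21.2 FPKM) did not. The sum of 5 sporulation markers lay between 20 and 46.3 FPKM. Structural RNAs took 4171.2 to 14844.8 FPKM in 23 libraries and 75006.3 FPKM in library 0 of Mut2 at 20 min. Library 1 lay above library 0 for 8, 9 and 8 of the 10 members in WT at 0, 10 and 20 min, and for 9, 10 and 10 in Mut2, where the median ratio of library 1 to library 0 was 1.38, 1.39 and 1.3. The counts were 7, 9 and 10 in Mut1 and 5, 9 and 6 in Mut3. The scaling factor by median ratios, over tested features never at 0, was also higher in library 1 in every group (1.07 against 0.867 in WT at 0 min). In Mut2 the factors of library 1 and library 0 were 1.08 and 0.862, then 1.06 and 0.947, then 1.08 and 0.966. In Mut3 at 0 min they were 1.06 and 0.883, while the median ratio of the members was 1.01. The offset of the members thus did not follow these factors in size in every group. Whether it is particular to the members was not tested. The paired fit holds the library number as a term. Without library 0 of Mut2 at 20 min 4 member calls were lost, those of GAC1 from 10 to 20 min in Mut1 (adjusted p 0.0505) and Mut2 (0.142), GLG2 from 0 to 20 min in Mut2 (0.0974) and PGM2 in Mut3 against Mut2 at 20 min (0.38). In whole-culture RNA, fewer cells that use a gene and less RNA per cell cannot be told apart.

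In WT, 9 of the 10 genes rose by 10 min of salt and none fell, against 17.6% of all features called higher. The same count, 9 of 10, was higher at 20 min than at 0 min, against 24.5% of all features. GAC1 was the member that did not pass at either time. The median log2 change of the members was 2.09 at 10 min and 2.73 at 20 min, and that of all features tested was 0.02 and 0.07. Mut1 and Mut2 each had 8 members higher at 10 min (background 15.8% and 16.3%) and all 10 higher at 20 min (20.2% and 21.5%). The paired fit had 9 in Mut1 at 10 min, adding GLG2 (1.3-fold, adjusted p 0.053, paired 0.00726), with 58.1% of all features called in either direction. Mut3 had 9 at 10 min (17.5%) and 9 at 20 min (25.3%), or 10 at 20 min in the paired fit, which added GAC1 and called 70.4% of all features in either direction. At 20 min the median log2 change of the members was 3.17 in Mut1, 3.06 in Mut2 and 3.58 in Mut3, and that of all features was 0.05, 0.08 and 0.1. Between 10 and 20 min 2 members rose further in WT (background 6.13%), 5 in Mut1 (1.38%), 3 in Mut2 (2.14%) and 8 in Mut3 (6.18%), and none fell. The paired fit called 6 higher and 1 lower in WT, and 8, 6 and 9 higher in Mut1, Mut2 and Mut3, with 41.8%, 20.3%, 28.4% and 42.3% of all features called in either direction. It added GSY2, GLC3, GPH1 and GDB1 as higher and GSY1 as lower in WT, GSY2, GLC3 and GLG1 in Mut1, UGP1, PGM2 and GLG1 in Mut2, and GAC1 in Mut3 (adjusted p 0.0667 to 0.384, paired 0.00205 to 0.0394).

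**Figure D2:**
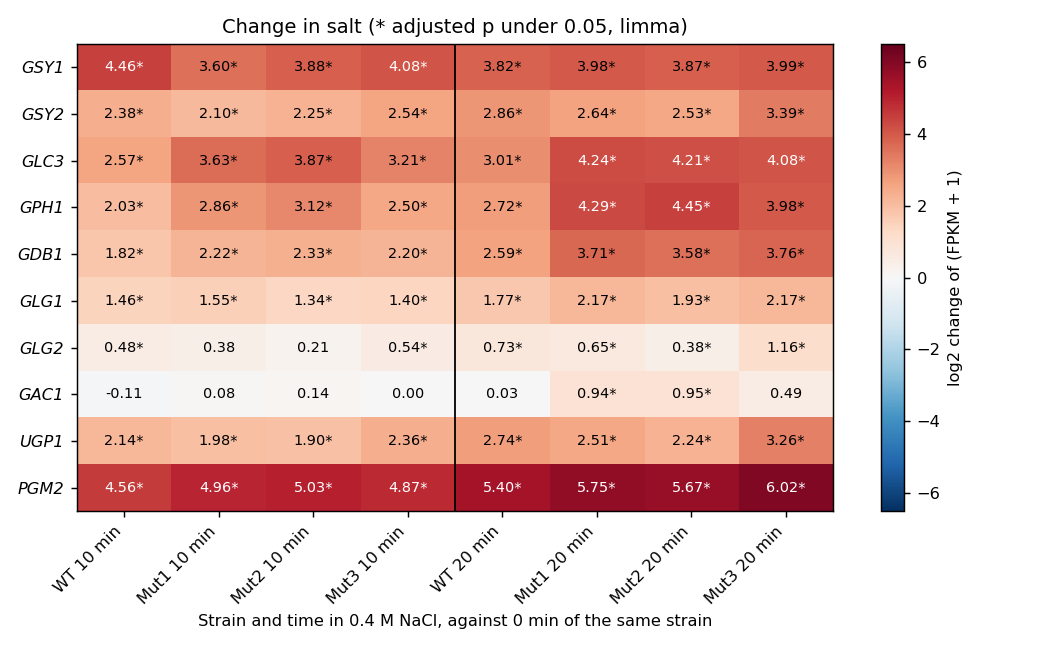
Heat map of the log2 change of FPKM + 1 from 0 min for the 10 genes, by strain and time in salt (2 libraries a group). Colour and printed number give the change, and an asterisk marks an adjusted p under 0.05 in limma. PGM2 shows the highest change in every strain, from 4.56 in WT at 10 min to 6.02 in Mut3 at 20 min, and GAC1 lies near 0 at 10 min.

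PGM2, the major phosphoglucomutase, had the widest range of the members, and its coding region lies on chromosome XIII from 475897 to 477606 (minus strand). In WT it was at 12.3 and 10 FPKM at 0 min, 277 and 294 at 10 min and 497 and 527 at 20 min. Mut1 had 12.2 and 12.6, then 382 and 455, then 642 and 814 FPKM, and Mut2 had 9.37 and 12.5, then 325 and 457, then 502 and 721 FPKM. Mut3 had 14.3 and 14.7, then 441 and 465, then 1010 and 1000 FPKM. Every library in salt was far above every untreated one, and the Mut3 libraries at 20 min were above all others. PGM2 thus rose 23.6-fold in WT by 10 min (log2 4.56 ± 0.20, adjusted p 4.57e-10) and 42.3-fold by 20 min (5.40 ± 0.20, adjusted p 5.67e-11). By 20 min the rise was 64.9-fold in Mut3, 54.0-fold in Mut1 and 51.0-fold in Mut2. The further increase from 10 to 20 min was called in WT (1.79-fold, adjusted p 0.0111), Mut1 (1.73-fold, 0.0484) and Mut3 (2.22-fold, 0.00136). That of WT was lost without library 0 at 10 min or either library at 20 min (adjusted p 0.05 to 0.0846), and that of Mut1 without any 1 of its 4 libraries (0.0663 to 0.425) or with 0.1 FPKM added in place of 1 (0.0514). PGM1, the minor phosphoglucomutase, whose sequence is 73% identical to PGM2, was 111 ± 20.5 FPKM (SD, n = 2) at 0 min and 109 ± 15.6 FPKM at 20 min in WT, with no call. It was lower at 20 than at 0 min in Mut1 (1.55-fold, adjusted p 0.0296) and Mut2 (1.72-fold, 0.0091), and was not called in Mut3 (log2 0.10 ± 0.21, 0.755). Before salt the group means of PGM1 (96.6 to 126 FPKM) lay above those of PGM2 (10.9 to 14.5 FPKM) in every strain. The words major and minor thus do not describe transcript levels at that time.

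UGP1 makes UDP-glucose for glycogen, trehalose and cell wall glucan alike, and it lies on chromosome XI from 369891 to 371390 (plus strand). Its WT levels were 203 and 192 FPKM at 0 min, 908 and 844 at 10 min and 1460 and 1200 at 20 min. In Mut1 they were 360 and 303, then 1340 and 1280, then 1860 and 1910 FPKM, and in Mut2 321 and 319, then 1170 and 1220, then 1470 and 1570 FPKM. Mut3 gave 278 and 260, then 1450 and 1320, then 2820 and 2370 FPKM. It was the highest of the 10 genes in every strain at every time, and untreated levels of all 3 mutants lay above those of WT. UGP1 rose 4.42-fold in WT by 10 min (log2 2.14 ± 0.13, adjusted p 1.15e-08) and 6.67-fold by 20 min (2.74 ± 0.13, adjusted p 5.2e-10). Mut3 reached 9.57-fold at 20 min, Mut1 5.69-fold and Mut2 4.73-fold. From 10 to 20 min it rose further in WT (1.51-fold, adjusted p 0.00632, lost without library 1 at 10 min or library 0 at 20 min, 0.0562 and 0.0782), Mut3 (1.87-fold, 0.000374) and Mut1 (1.44-fold, 0.0425, lost without any 1 of its 4 libraries, 0.132 to 0.252). With the columns rescaled by median ratios, the calls over this interval in WT (log2 0.55, adjusted p 0.138) and Mut1 (0.53, 0.314) were also lost.

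The chain-priming glycogenin genes moved less. GLG1 (chromosome XI, 552770 to 554620, plus strand) was at 4.42 and 4.59 FPKM in WT at 0 min, 13.8 and 14.6 at 10 min and 19.1 and 16.6 at 20 min. Over all 24 libraries it ran from 4.33 to 29.6 FPKM. It rose 2.76-fold (log2 1.46 ± 0.17, adjusted p 9.24e-06) and 3.42-fold (1.77 ± 0.17, adjusted p 7.2e-07) in WT, and the mutants at 20 min stood 4.51-fold (Mut1 and Mut3) and 3.80-fold (Mut2) above their own 0 min. GLG2 (chromosome X, 154985 to 156127, minus strand) started higher, at 11 and 12.5 FPKM in WT, and was at 16.7 and 16.9 at 10 min and 18.4 and 22.2 at 20 min. Its rise in WT was 1.40-fold at 10 min (adjusted p 0.0136) and 1.66-fold at 20 min (adjusted p 0.00051). The call at 10 min was lost without library 0 at 0 min or either library at 10 min (adjusted p 0.0524 to 0.109). In Mut2 the 20 min call of GLG2 (1.3-fold, adjusted p 0.043) was lost without library 0 at 0 min or either library at 20 min (0.0974 to 0.321) and with rescaled columns (0.0813), and in Mut3 the 10 min call (1.46-fold, 0.00684) without library 0 at 0 min or library 1 at 10 min (0.0936 and 0.061). The glycogenin transcript ratio, GLG1 to GLG2, was 0.402 and 0.366 in WT at 0 min, 0.825 and 0.863 at 10 min and 1.04 and 0.75 at 20 min. GLG2 was thus the more abundant glycogenin transcript per length before salt, and the WT libraries at 20 min lay on either side of equality. Across the 4 strains the ratio rose 2.26-fold from 0 to 10 min (8 against 8 libraries, exact two-sided permutation of times within strains, p 0.00154, adjusted p 0.00309 over 6 ratio tests). From 10 to 20 min it rose 1.2-fold (p 0.017, adjusted p 0.0204), which was lost without library 0 of WT at 20 min (p 0.0509). The p of 0.00154 is the smallest that the 1296 labellings allow, and the ratios were chosen after the values had been seen.

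Of the synthase genes, GSY2, which encodes the main isoform, was the higher before salt, and GSY1 changed more. GSY1 (chromosome VI, 174265 to 176391, minus strand) was at 4.41 and 4.83 FPKM in WT at 0 min, 112 and 134 at 10 min and 70.9 and 86.1 at 20 min. Mut1 had 3.13 and 4.81, then 52.3 and 65.2, then 62 and 93.7 FPKM, and Mut2 had 1.56 and 5.46, then 44.3 and 77.7, then 42.6 and 79.9 FPKM. Mut3 had 3.41 and 5.82, then 83.5 and 100, then 80.8 and 91.6 FPKM. The WT libraries at 10 min were the highest of all 24, and those of Mut1 and Mut2 at 10 min lay below every WT and Mut3 library of that time. GSY1 rose 22-fold in WT by 10 min (log2 4.46 ± 0.41, adjusted p 9.36e-07), while the folds of Mut1, Mut2 and Mut3 were 12.1, 14.7 and 16.9. At 20 min the fold over 0 min was 14.1 in WT and 15.8, 14.6 and 15.9 in the mutants, in the same order. Between 10 and 20 min the WT value changed by log2 -0.64 ± 0.41 (adjusted p 0.384), which was called only in the paired fit (0.0394). The GSY1 levels of Mut1 and Mut2 at 10 min differed from WT by log2 -1.06 ± 0.41 and -1.05 ± 0.41 (adjusted p 0.113 and 0.125), and both were called lower only in the paired fit (0.00256 and 0.00291).

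GSY2 (chromosome XII, 660716 to 662833, plus strand) was at 21 and 23.5 FPKM in WT at 0 min, 113 and 127 at 10 min and 159 and 176 at 20 min. Mut1 had 34.9 and 37.1, then 147 and 169, then 204 and 258 FPKM, and Mut2 had 25.9 and 37, then 134 and 170, then 160 and 210 FPKM. In Mut3 the values were 27.3 and 25.6, then 147 and 171, then 281 and 294 FPKM. GSY2 had its highest library at 20 min in each strain, and only in Mut2 did the libraries of 10 and 20 min overlap. It rose 5.22-fold (log2 2.38 ± 0.19, adjusted p 1.89e-07) and 7.26-fold (2.86 ± 0.19, adjusted p 1.52e-08) in WT at 10 and 20 min, and 10.5-fold in Mut3 at 20 min. Its change from 10 to 20 min in WT, 1.39-fold, was called only in the paired fit (adjusted p 0.115, paired 0.00363). GSY1 and GSY2 are 73.5% identical over 2061 bases, and how reads shared by them were assigned is not given in the sources used here. The ratio of GSY1 to GSY2 was 0.21 and 0.206 in WT at 0 min, 0.994 and 1.05 at 10 min, and 0.446 and 0.49 at 20 min. In Mut1 it was 0.0897 and 0.13, then 0.356 and 0.385, then 0.304 and 0.364, in Mut2 0.0604 and 0.148, then 0.331 and 0.458, then 0.266 and 0.38, and in Mut3 0.125 and 0.227, then 0.567 and 0.588, then 0.288 and 0.311. The synthase transcripts were about equal per length in WT at 10 min, and in no other group. Across strains the ratio rose 3.93-fold from 0 to 10 min (exact permutation p 0.00154, adjusted p 0.00309) and was 1.55-fold lower at 20 than at 10 min (p 0.00772, adjusted p 0.0116). In WT and Mut3 both libraries at 20 min lay below those at 10 min, while in Mut1 and Mut2 the libraries of these times overlapped.

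**Figure D3:**
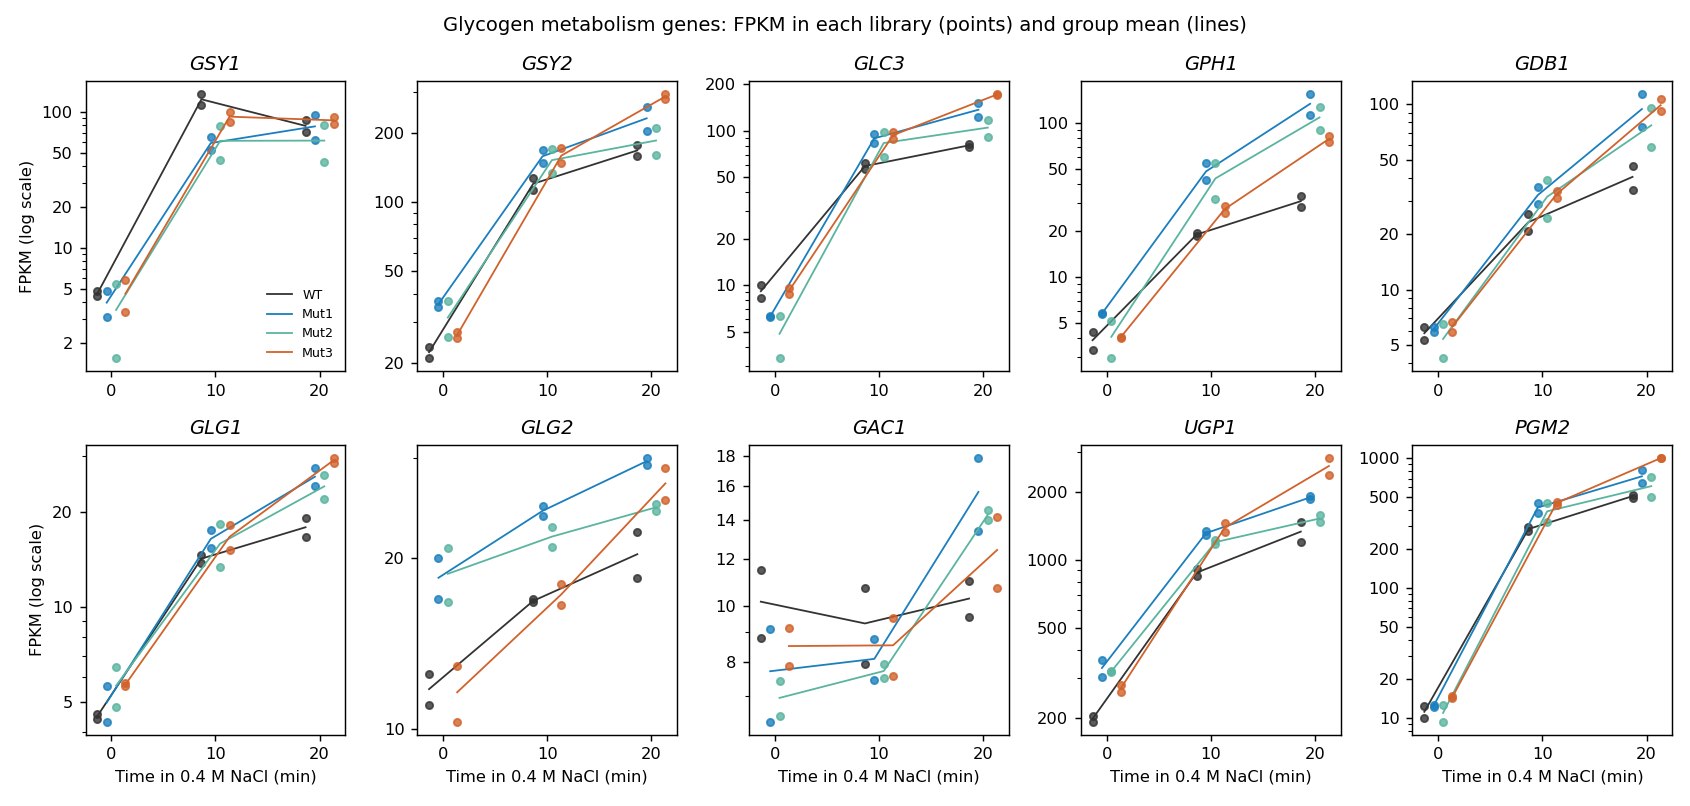
FPKM (log axis) of each of the 10 genes by time in salt in the 4 strains, with 1 point for each library and lines through the group means. GSY1 is highest in WT at 10 min (112 and 134 FPKM), and GPH1 at 20 min ranges from 28.6 FPKM in WT to 154 FPKM in Mut1.

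GLC3, the branching enzyme gene (chromosome V, 133120 to 135234, plus strand), was at 8.29 and 9.98 FPKM in WT at 0 min, 56.1 and 61.8 at 10 min and 78.2 and 82.4 at 20 min. Mut1 had 6.22 and 6.31, then 83.2 and 95.1, then 123 and 150 FPKM, and Mut2 had 3.38 and 6.31, then 67.7 and 98.5, then 91.2 and 118 FPKM. Mut3 had 8.76 and 9.59, then 88.5 and 98.3, then 172 and 171 FPKM. Mut1 and Mut2 lay below WT before salt and above it at 10 and 20 min. The rise in WT was 5.93-fold at 10 min (log2 2.57 ± 0.22, adjusted p 4.42e-07) and 8.05-fold at 20 min (3.01 ± 0.22, adjusted p 4.92e-08). Mut1 reached 12.4-fold and then 18.9-fold, Mut2 14.6-fold and 18.5-fold, and Mut3 9.27-fold and 16.9-fold. In WT the change from 10 to 20 min, 1.36-fold, was called only in the paired fit (adjusted p 0.232, paired 0.0267). Over the same interval GLC3 rose 1.82-fold in Mut3 (adjusted p 0.016, lost without any 1 of the 4 libraries, 0.051 to 0.126). Mut3 was also the strain in which GSY2 (1.81-fold, 0.00665), GLG1 (1.71-fold, 0.00683) and GLG2 (1.54-fold, 0.00777) were called over that interval. Without library 0 of Mut3 at 10 min these calls were lost (0.0804, 0.0907 and 0.0825), and GSY2 and GLG2 were also lost without library 1 at 20 min (0.0517 and 0.0858).

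Of the members, GPH1 had the largest log2 difference from WT at 20 min in each mutant. In Mut3 its lead over GDB1 (1.32 ± 0.26 against 1.27 ± 0.28) was smaller than either SE. GPH1, glycogen phosphorylase (chromosome XVI, 861306 to 864014, plus strand), was at 3.36 and 4.39 FPKM in WT at 0 min, 18.5 and 19.2 at 10 min and 28.6 and 33.5 at 20 min. Mut1 had 5.83 and 5.71, then 42.4 and 54.6, then 113 and 154 FPKM, and Mut2 had 2.97 and 5.18, then 32.1 and 55.2, then 90.6 and 127 FPKM. Mut3 had 4.07 and 4.02, then 26.2 and 29, then 75.2 and 82.4 FPKM. At 20 min every mutant library was above every WT library, with Mut1 and Mut2 above Mut3. GPH1 rose 4.10-fold (log2 2.03 ± 0.26, adjusted p 2.39e-05) and 6.59-fold (2.72 ± 0.26, adjusted p 7.36e-07) in WT at 10 and 20 min. By 20 min its rise was 21.9-fold in Mut2, 19.6-fold in Mut1 and 15.8-fold in Mut3. Between 10 and 20 min it rose a further 2.79-fold in Mut3 (adjusted p 0.00154), 2.70-fold in Mut1 (0.00825) and 2.51-fold in Mut2 (0.00955). The change in WT, log2 0.69 ± 0.26, was called only in the paired fit (adjusted p 0.101, paired 0.00496). The call in Mut1 was lost without library 0 at 10 min or library 1 at 20 min (0.122 and 0.137), and so was that in Mut2 (0.151 and 0.0726).

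GDB1, the debranching enzyme gene (chromosome XVI, 902044 to 906654, plus strand), was at 5.36 and 6.28 FPKM in WT at 0 min, 20.6 and 25.6 at 10 min and 34.4 and 46.6 at 20 min. Mut1 had 5.94 and 6.3, then 29 and 35.6, then 75 and 113 FPKM, and Mut2 had 4.28 and 6.56, then 24.4 and 38.9, then 58.6 and 95 FPKM. Mut3 had 6.71 and 5.92, then 31.3 and 34, then 91.2 and 106 FPKM. The strains overlapped before salt, and at 20 min all mutant libraries were above both WT libraries. GDB1 rose 3.52-fold and 6.03-fold in WT (adjusted p 0.000122 and 2.35e-06), and at 20 min the mutants reached 13.6-fold (Mut3), 13.1-fold (Mut1) and 12-fold (Mut2). From 10 to 20 min it rose 2.95-fold in Mut3 (adjusted p 0.00161), 2.80-fold in Mut1 (0.01) and 2.37-fold in Mut2 (0.0204), and the calls in Mut1 and Mut2 were lost without library 0 at 10 min or library 1 at 20 min (0.125 to 0.24). The 1.71-fold change in WT was called only in the paired fit (adjusted p 0.0814, paired 0.00221).

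The ratio of GPH1 to GSY2, phosphorylase to main synthase, was nearly level in WT, with 0.16 and 0.187 at 0 min, 0.163 and 0.151 at 10 min, and 0.18 and 0.191 at 20 min. In Mut1 it was 0.167 and 0.154, then 0.289 and 0.322, then 0.552 and 0.597, and in Mut2 0.115 and 0.14, then 0.24 and 0.325, then 0.565 and 0.604. Mut3 had 0.149 and 0.157, then 0.178 and 0.17, then 0.268 and 0.28. At 20 min all 3 mutants stood above WT, with Mut1 and Mut2 the highest. Over the 4 strains together the ratio rose 1.64-fold from 10 to 20 min (exact two-sided permutation p 0.00154, adjusted p 0.00309). From 0 to 10 min it rose 1.44-fold (p 0.0247, adjusted p 0.0247), which was not called with 1 FPKM added to both genes (p 0.0864). The difference of this ratio between strains was not tested.

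**Figure D4:**
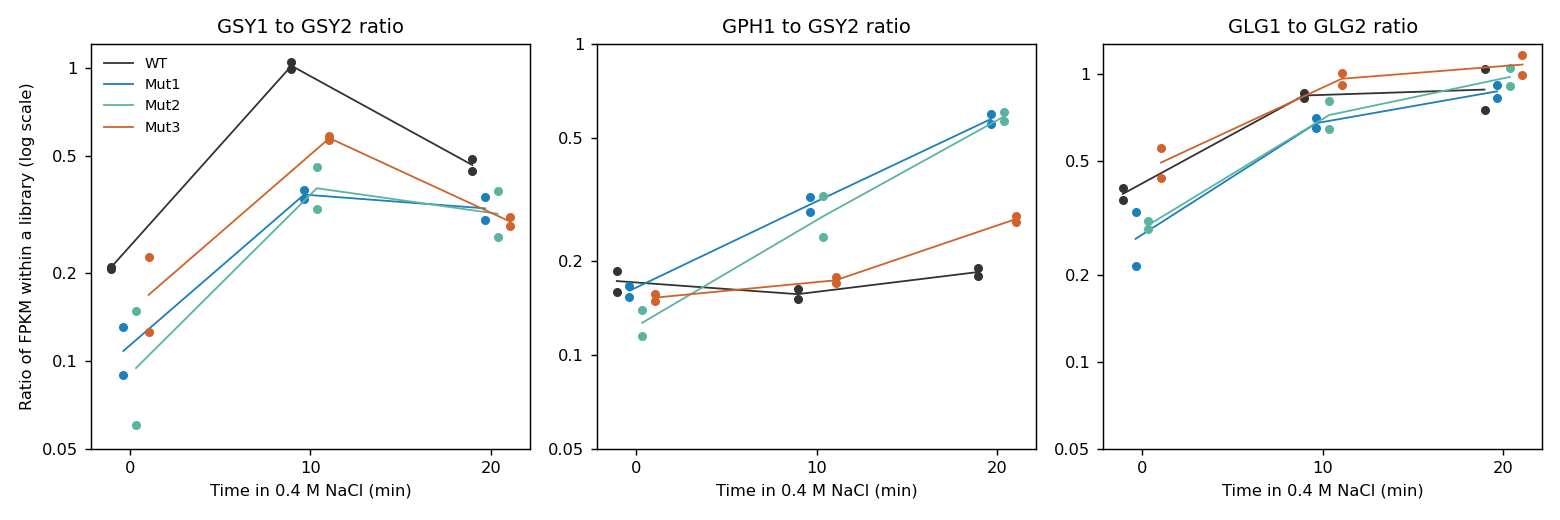
Ratios of FPKM of GSY1 to GSY2, GPH1 to GSY2 and GLG1 to GLG2 (log axis) by time in salt, with 1 point for each library in each strain. GSY1 reaches 0.994 and 1.05 of GSY2 in WT at 10 min, and GPH1 reaches 0.552 to 0.604 of GSY2 in Mut1 and Mut2 at 20 min.

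GAC1, the targeting subunit (chromosome XV, 667860 to 670241, minus strand), was at 8.81 and 11.5 FPKM in WT at 0 min, 7.94 and 10.7 at 10 min and 9.56 and 11 at 20 min. Mut1 had 6.33 and 9.11, then 7.45 and 8.76, then 13.4 and 17.9 FPKM, and Mut2 had 6.46 and 7.44, then 7.51 and 7.94, then 14 and 14.6 FPKM. Mut3 had 7.89 and 9.16, then 7.57 and 9.53, then 10.7 and 14.2 FPKM. The WT times overlapped, while in each mutant both libraries at 20 min lay above those at 0 and 10 min. From 0 to 20 min GAC1 changed by log2 0.03 ± 0.21 in WT (adjusted p 0.937) and rose by 0.94 ± 0.21 in Mut1 (0.00224) and 0.95 ± 0.21 in Mut2 (0.00214). In Mut3 the change of 0.49 ± 0.21 was called only in the paired fit (adjusted p 0.0683, paired 0.000878). These changes differed from that of WT by log2 0.91 ± 0.30 in Mut1 and 0.92 ± 0.30 in Mut2, called only in the paired fit (adjusted p 0.181 and 0.126, paired 0.00108 and 0.00073). From 10 to 20 min GAC1 rose 1.82-fold in Mut1 (adjusted p 0.0416) and 1.76-fold in Mut2 (0.0432), and each call was lost without any 1 of the 4 libraries (0.0539 to 0.409).

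By level per length, UGP1 led in untreated WT with 197 FPKM and GSY2 followed with 22.2 FPKM. GLG2 (11.8 FPKM), PGM2 (11.2) and GAC1 (10.1) came next with overlapping libraries, and GAC1 also overlapped GLC3 (9.14). Below them stood GDB1 (5.82), the overlapping GSY1 (4.62) and GLG1 (4.51), and GPH1 (3.87). At 20 min PGM2 stood next to UGP1 with 512 FPKM, GSY2 followed with 167 FPKM, GLC3 (80.3) and GSY1 (78.5) overlapped, and GDB1 (40.5) and GPH1 (31) followed. GLG2 (20.3) and GLG1 (17.9) overlapped at the same time, and GAC1 (10.3) was last.

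Before salt few members differed between strains. UGP1 was higher than in WT in Mut1 (1.67-fold, log2 0.74 ± 0.13, adjusted p 0.00234) and Mut2 (1.62-fold, 0.69 ± 0.13, 0.00417). GLG2, at 20 and 16.9 FPKM in Mut1 and 16.7 and 20.8 FPKM in Mut2, was higher by 1.52-fold (adjusted p 0.0192) and 1.54-fold (0.0157). GLC3 was 1.79-fold lower in Mut2 (log2 -0.84 ± 0.22, adjusted p 0.0446). These are 2 members higher in Mut1 and 2 higher and 1 lower in Mut2, against 4.62% and 4.51% of all features called in either direction. No member was called in Mut3, where 1.62% of features were called. UGP1 alone had an unadjusted p under 0.05 there (p 0.0037), a threshold for which no share of all features is given. The paired fit called 3 higher and 2 lower in both Mut1 and Mut2 and UGP1 in Mut3 (1.36-fold, adjusted p 0.00697), with 18.1%, 20.9% and 7.91% of all features called. In Mut1 and Mut2 it added GSY2 as higher (1.59-fold and 1.38-fold, paired 0.000609 and 0.00933) and GAC1 as lower (1.29-fold and 1.39-fold, 0.0296 and 0.00552), and in Mut1 GLC3 as lower (1.39-fold, 0.0375). With rescaled columns the UGP1 calls in Mut1 (log2 0.72, adjusted p 0.0926) and Mut2 (0.69, 0.103) were lost at nearly the same size, and both were held when rescaling and block were combined (8.34e-05 and 0.00012). The GLG2 call in Mut1 was lost without library 0 of WT or of Mut1 (0.181 and 0.192), that in Mut2 without library 0 of WT or library 1 of Mut2 (0.171 and 0.195), and GLC3 without either WT library or library 0 of Mut2 (0.111 to 0.361).

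At 10 min GPH1 was 2.47-fold above WT in Mut1 (log2 1.31 ± 0.26, adjusted p 0.00388) and 2.17-fold above it in Mut2 (1.12 ± 0.26, 0.0116). UGP1 was higher in Mut3 by 1.58-fold (0.0164), in Mut1 by 1.5-fold (0.00726) and in Mut2 by 1.37-fold (0.0335), and GLG2 was 1.41-fold higher in Mut1 (0.0268). That made 3, 2 and 1 members higher and none lower, against 6.73%, 5.13% and 1.05% of all features called higher. The paired fit called 7 higher and 1 lower in Mut1, 6 and 1 in Mut2 and 4 and 0 in Mut3, with 42.9%, 39.5% and 12.5% of all features called. It added GSY2, GLC3 and PGM2 as higher in all 3 mutants, GDB1 in Mut1 and GLG2 in Mut2 (1.25-fold to 1.58-fold, paired 0.00573 to 0.0404), and GSY1 as lower in Mut1 and Mut2. GPH1 in Mut1 was lost without its library 1 (0.0525) and in Mut2 without either WT library or its own library 1 (0.0592 to 0.148). The UGP1 call in Mut1 was lost without library 1 of WT or library 0 of Mut1 (0.0664 and 0.0594), and those of UGP1 in Mut2 and Mut3 and of GLG2 in Mut1 without any 1 of the 4 libraries (0.0808 to 0.182). With rescaled columns UGP1 was called in none of the mutants (log2 0.55, 0.43 and 0.65 in Mut1, Mut2 and Mut3, adjusted p 0.132, 0.26 and 0.232).

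At 20 min Mut3 had 7 members above WT, against 1.76% of all features called higher. They were UGP1 (1.95-fold, log2 0.96 ± 0.13, adjusted p 0.00094), PGM2 (1.97-fold, 0.0138), GSY2 (1.72-fold, 0.035), GLC3 (2.12-fold, 0.0137), GLG1 (1.60-fold, 0.0439), GPH1 (2.50-fold, 0.0119) and GDB1 (2.42-fold, 0.0205). Of these, UGP1 kept its call whichever library was left out, and the other 6 lost theirs without any 1 of the 4 libraries (adjusted p 0.0578 to 0.317). GLG1 also lost its call with 0.1 FPKM added in place of 1 (0.0549). In Mut1, 4 members were higher (3.84% of features): GPH1 4.15-fold (2.05 ± 0.26, 0.000269), GDB1 2.26-fold (0.0181), GLG2 1.44-fold (0.0325) and UGP1 1.42-fold (0.0259). In Mut2 GPH1 alone was higher, 3.39-fold (1.76 ± 0.26, 0.000918; 4.62% of features). The GPH1 calls in Mut1 and Mut2 held without each library in turn. GDB1 in Mut1 was lost without library 0 of WT or library 1 of Mut1 (0.154 and 0.176), GLG2 without any 1 of the 4 libraries (0.0503 to 0.245) and UGP1 without library 1 of WT or either Mut1 library (0.101 to 0.268) and with rescaled columns (log2 0.53, 0.198). The paired fit called 9, 4 and 8 members higher in Mut1, Mut2 and Mut3 and none lower, with 32.5%, 35.3% and 21.1% of all features called. It added GSY2, GLC3, GLG1, GAC1 and PGM2 in Mut1, GDB1, GLG1 and GAC1 in Mut2 and GLG2 in Mut3 (1.32-fold to 1.84-fold, paired 0.00134 to 0.0255). Fitted on the 4 compared libraries alone, none of these strain differences was called at 0, 10 or 20 min. The share of all features called in those fits is not given, so this count cannot be read as a trait of the members.

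**Figure D5:**
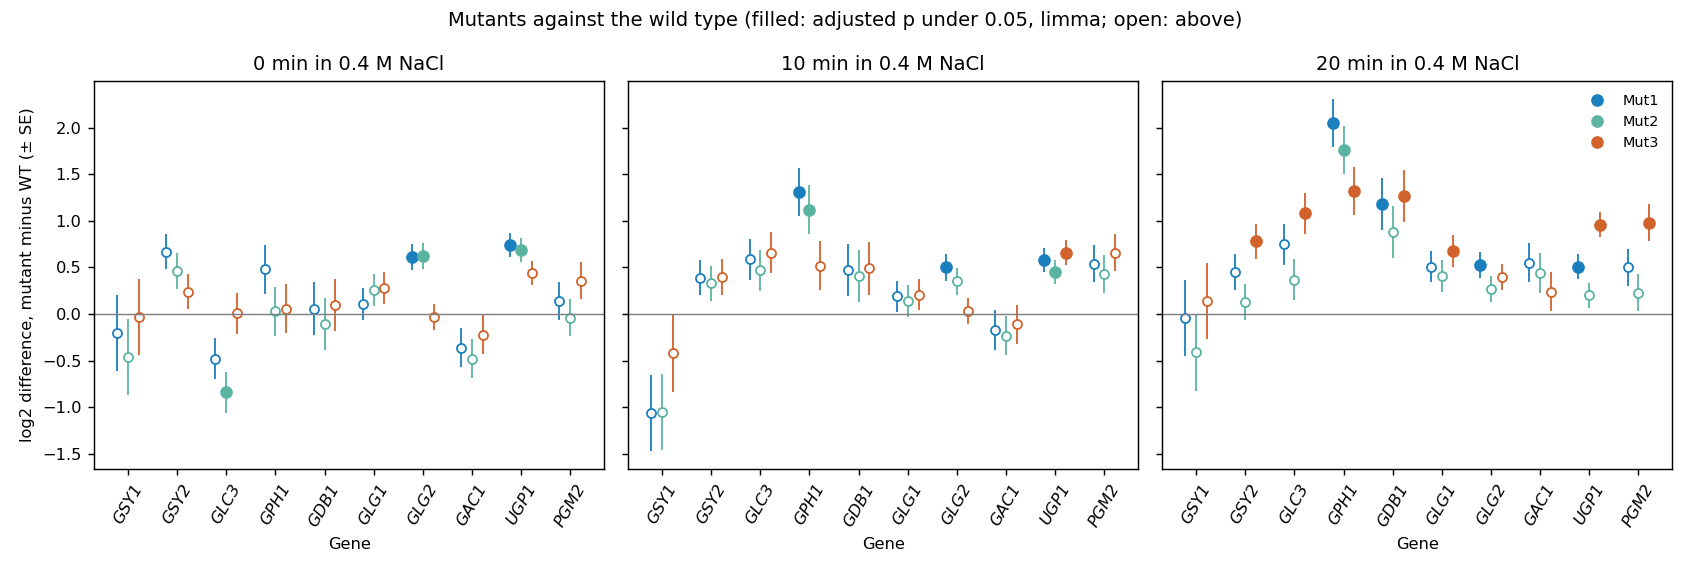
Log2 difference in FPKM + 1 between each mutant and WT at 0, 10 and 20 min for the 10 genes, with the SE of the limma fit (2 libraries a group). GPH1 at 20 min stands highest, at 2.05 in Mut1 and 1.76 in Mut2.

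The test of the difference between a mutant's salt response and that of WT called 3 values. GPH1 rose more by 20 min in Mut1 (log2 difference 1.57 ± 0.37, adjusted p 0.0354) and in Mut2 (1.73 ± 0.37, 0.0173), and GLC3 rose more by 10 min in Mut2 (1.3 ± 0.31, 0.0433). The share of all features called in either direction was 2.5% for Mut1 at 20 min, 3.13% for Mut2 at 20 min and 2.42% for Mut2 at 10 min. No member was called for Mut1 at 10 min, Mut3 at 10 min or Mut3 at 20 min, where 2.59%, 0.189% and 0.299% of features were called. An unadjusted p under 0.05 was seen for GLC3 and GPH1, no member, and 6 members, in that order. The share of all features at that unadjusted threshold is not given, so these members cannot be set against the shares called. The paired fit called 2 members with a greater rise in Mut1 and 2 in Mut2 at 10 min, GPH1 and GLC3 in both. At 20 min it called GPH1, GDB1 and GLC3 with a greater rise than in WT in all 3 mutants, GAC1 in Mut1 and Mut2, and UGP1 in Mut3 (log2 0.52, adjusted p 0.552, paired 0.0422). UGP1 rose less than in WT in Mut2 by that fit (log2 -0.50 ± 0.18, adjusted p 0.182, paired 0.0133). It called 16.4% and 15.6% of all features at 10 min and 15.5%, 25.3% and 3.73% at 20 min. The GPH1 call in Mut1 was lost with 0.1 FPKM added in place of 1 (0.0731) and in 7 of 8 fits without 1 library (0.0614 to 0.154, kept only without library 0 of Mut1 at 20 min). That in Mut2 was lost without library 1 of WT at 0 min, library 0 of WT at 20 min, library 0 of Mut2 at 0 min or library 1 of Mut2 at 20 min (0.0533 to 0.075). The GLC3 call was lost without any 1 of the 4 WT libraries, library 0 of Mut2 at 0 min or library 1 of Mut2 at 10 min (0.0868 to 0.18).

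Mut1 and Mut2, which differ by Ypd1 M92K, had no member called between them in either fit. Without the block 0%, 0.0786% and 0% of all features were called at 0, 10 and 20 min. The share called in the paired fit is not given. At an unadjusted p under 0.05 there was no member at 0 or 10 min and UGP1 alone at 20 min, 1.24-fold lower in Mut2 (p 0.0283, adjusted p 1). Mut3 had less GLG2 before salt than Mut1 (10.3 and 12.9 FPKM in Mut3, 1.55-fold lower, adjusted p 0.0308) and Mut2 (1.57-fold lower, 0.0256), with 1.79% and 1.89% of all features called. The first was lost without either Mut1 library or library 0 of Mut3 (0.0679 to 0.404) and the second without library 1 of Mut2 or library 0 of Mut3 (0.259 and 0.325). At 20 min Mut3 had more UGP1 than Mut2 (1.70-fold, log2 0.77 ± 0.13, adjusted p 0.00219) and more PGM2 (1.67-fold, 0.74 ± 0.20, 0.0355), the latter lost without library 0 of Mut2 or either Mut3 library (0.142 to 0.38). Between these strains at 20 min 7.52% of features were called, and library 0 of Mut2 at that time is the one rich in structural RNA. The other comparisons of Mut3 with Mut1 at 10 and 20 min and with Mut2 at 10 min called no member. In them 3.4%, 3.26% and 2.64% of features were called. An unadjusted p under 0.05 was seen for 2, 3 and 2 members. The share of all features at that unadjusted threshold is not given. The UGP1 call of Mut3 against Mut2 at 20 min was lost with rescaled columns (log2 0.73, adjusted p 0.0664). Against Mut1 the paired fit added GPH1 as lower in Mut3 at 10 min (1.72-fold, adjusted p 0.139, paired 0.00539) and at 20 min (1.66-fold, adjusted p 0.161, paired 0.00665), GLG2 as lower at 10 min (1.38-fold, paired 0.00729) and GSY2 as lower at 0 min (1.35-fold, 0.0279). At 20 min it also called GSY2 (1.25-fold, 0.048), UGP1 (1.37-fold, 0.00294) and PGM2 (1.39-fold, 0.0385) as higher in Mut3 than in Mut1. Against Mut2 it added GLC3 as higher at 0 min (1.80-fold, 0.00172), GPH1 as lower at 10 min (1.51-fold, 0.0259), and GSY2 (1.56-fold, 0.000599) and GLC3 (1.64-fold, 0.00198) as higher at 20 min. It called 8.85%, 20.8% and 24.5% of all features between Mut3 and Mut1 at 0, 10 and 20 min, and 10.1%, 18% and 35.6% between Mut3 and Mut2.

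Of 18 further regulators of glycogen, listed with earlier results of these data known, 7 rose and 2 fell in WT at 10 min and 9 rose and 2 fell at 20 min, against 35.2% and 47% of all features called in either direction. The paired fit called 14 higher and 2 lower at 10 min, and 61.6% of all features. IGD1, an inhibitor of the debranching enzyme, was at 1.65 and 6.04 FPKM at 0 min and 65.5 and 110 FPKM at 20 min in WT, a 14.7-fold rise at 10 min (log2 3.87 ± 0.67, adjusted p 0.000367) and 19.9-fold at 20 min (4.31 ± 0.67, 9.2e-05). GIP2 and PIG2, putative regulatory subunits of Glc7, rose 4.18-fold and 3.77-fold at 10 min and 5.50-fold and 4.78-fold at 20 min. SGA1, a glucoamylase known from sporulation, rose 3.17-fold and 3.24-fold from 1.40 and 2.67 FPKM. PSK1, a PAS kinase that acts on Ugp1 and glycogen synthase, rose 2.76-fold at 10 min, and PCL8, a Pho85 cyclin that directs phosphorylation of glycogen synthase, 3.93-fold at 20 min. At 20 min GIP2 was higher than in WT in Mut1 (2.25-fold, adjusted p 0.00392), Mut2 (1.93-fold, 0.0149) and Mut3 (2.64-fold, 0.00269). Of the 18 regulators, 3, 4 and 1 were called higher in these comparisons and none lower. The shares of all features called higher were 3.84%, 4.62% and 1.76%. Products of this list act on glycogen synthase in opposite directions, so its counts give no direction for glycogen itself.

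Among 13 enzymes that make or use glucose phosphates and UDP-glucose, 8 rose and 1 fell in WT at 10 min, and 9 rose and 2 fell at 20 min, against the same 35.2% and 47% of all features. The trehalose synthase subunit TSL1 rose 51.5-fold, the glucokinase GLK1 46.9-fold, the trehalose phosphatase TPS2 32.7-fold and the trehalose phosphate synthase TPS1 22.2-fold at 10 min. GLK1 overlaps YCL042W, so its value is uncertain. FKS1, which uses UDP-glucose to make cell wall glucan, fell 2.08-fold at 10 min and 3.23-fold at 20 min (adjusted p 0.00132 and 1.33e-05). GSC2, the other glucan synthase gene of the list and 81.6% identical to FKS1, rose 1.46-fold and 1.81-fold (0.00632 and 0.000125). HXK2, the hexokinase used on glucose, was 1.56-fold lower at 20 min (0.000249). FKS1, GSC2 and HXK2 were named after their values had been seen.

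Likeness of profile was measured as the root mean square difference between centred group means of log2(FPKM + 1) over the 12 groups, among 5710 other protein-coding genes. GSY1 was most like GTO3 (0.318), HSP104 (0.32) and EMI2 (0.346), GSY2 most like GGA1 (0.166), OM14 (0.169) and GSP2 (0.183), and PGM2 most like GAD1 (0.166), AIM17 (0.2) and HBT1 (0.284). GPH1 had no profile as near, with YPT53 at 0.368, DAK1 at 0.399 and SSE2 at 0.408. For GAC1, whose own range was narrow, they were YDR344C (0.128), FRE2 (0.153) and GTO1 (0.157). Within the 10 members the nearest pair was GSY2 and UGP1 (0.13).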

How the data were processed

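RNA from 24 libraries (TruSeq Stranded mRNA, total RNA by miRNeasy with DNase, per the labels) was quantified as FPKM by the authors with TopHat2 and Cuffdiff on sacCer3, per the submitters' processing notes. The sources used here do not give versions, annotation, scaling between libraries or the handling of shared reads. The deposited FPKM hold no read counts, so depth is unknown and no counting interval is given. Column names gave strain and time, and their 0 or 1 could not be tied to the labelled replicates. Of 7126 features, 481 were at 0 everywhere and 6086 matched the R64 reference.

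log2(FPKM + 1) of the 6359 features whose mean reached 1 FPKM was fitted as 12 group means in limma 3.58.1 (R 4.3.3) with a variance trend (12 residual degrees of freedom, prior 1.88), two-sided, with Benjamini-Hochberg adjustment over all features tested in a comparison. The step was also run on simulated data whose libraries varied independently of each other. That run cannot speak to deviations shared between libraries, and its outcome is not given here. Same-numbered libraries deviated together in all 66 pairs of groups (correlation of deviations 0.23 to 0.601), so the library number was used as a block in the paired fit. Ratios were tested by exact permutation. Sequence identities came from blastn 2.17.0.

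Members, lists and tests were chosen with earlier results of these data known. All members are named. Of each list, up to 4 called genes with the largest change per comparison, IGD1 and SGA1 are named, and for 5 members the 3 most like profiles. Alternatives were the pseudocount, the filter, rescaled columns, the block, no variance trend, compared groups alone and each library left out. The sequence upstream of GPH1 is not reported here.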

Additional observations from a re-analysis of the deposited data

Results flagged for a closer look

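In 3 cases the change from 0 min differed between a mutant and WT by the test of that difference in limma. GPH1, the glycogen phosphorylase gene, rose more by 20 min in Mut1 than in WT, by log2 1.57 (2.97-fold, SE 0.37, adjusted p 0.0354), and more in Mut2, by 1.73 (3.32-fold, SE 0.37, adjusted p 0.0173). GLC3, the branching enzyme gene, rose more by 10 min in Mut2 than in WT, by 1.3 (2.46-fold, SE 0.31, adjusted p 0.0433), and started lower there, at 3.38 and 6.31 FPKM against 8.29 and 9.98 FPKM in WT. These comparisons share the WT libraries. Of all features 2.5%, 3.13% and 2.42% were called in them, in the same order. The call of GPH1 in Mut1 was lost with 0.1 FPKM added in place of 1 (limma, adjusted p 0.0731). Each of the 3 calls was also lost without some single libraries, as given above.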

How the results depend on the processing

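Among the 120 pairs of member and comparison called, none changed direction under any alternative run, and the 67 further calls of the replicate block had the same direction as without it. The 173 pairs called in neither fit changed sign in 127 of 2248 alternative values. No filter and no variance trend changed no call. A pseudocount of 0.1 FPKM took the Mut1 minus WT change at 20 min from 1 member to 0 and also ended GLG1 in Mut3 against WT at 20 min (adjusted p 0.0549) and PGM2 in Mut1 from 10 to 20 min (0.0514). Rescaled columns gave 4, 7, 4 and 9 members called from 10 to 20 min in WT, Mut1, Mut2 and Mut3. From 0 to 20 min they gave 9 in Mut2 and 10 in Mut3. Against WT the counts were 4 in Mut2 at 0 min, 4 in Mut1 at 10 min, and 7 and 3 in Mut1 and Mut2 at 20 min. Mut3 differed from Mut2 in 2 members at 0 min and 3 at 20 min, and from Mut1 in 1 each at 10 and 20 min. The minus WT change was called for 1 and 3 members in Mut1 at 10 and 20 min, 2 and 3 in Mut2, and 1 in Mut3 at 20 min. All other counts were as reported. The share of all features called with rescaled columns is not given. Rescaling shifted the median of all features by at most 0.11 (in Mut3, 20 against 0 min, -0.11). UGP1 lost 9 calls there at nearly unchanged size (adjusted p 0.0664 to 0.314), all held with the block added, and GLG2 lost 1 (Mut2 at 20 min, 0.0813); the cause was not tested.

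With the replicate block, which pairs libraries by number, 7, 8 and 6 members were called from 10 to 20 min in WT, Mut1 and Mut2. Against WT it called 5, 5 and 1 in Mut1, Mut2 and Mut3 at 0 min, 8, 7 and 4 at 10 min, and 9 and 4 in Mut1 and Mut2 at 20 min. Mut3 differed from Mut1 in 2, 2 and 4 members and from Mut2 in 2, 1 and 4 at 0, 10 and 20 min. The difference in change was called for 2 and 4 members in Mut1, 2 and 5 in Mut2, and 4 at 20 min in Mut3. The block together with rescaled columns gave the same counts except 7 and 6 in Mut1 and Mut2 against WT at 10 min, 5 in Mut2 against WT at 20 min, 3 and 3 in Mut3 against Mut1 at 0 and 20 min, 5 in Mut3 against Mut2 at 20 min and 3 for the Mut3 change at 20 min. The block ended no call.

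Fitting the compared groups alone, on fewer libraries, gave 0 members in each comparison of 10 with 20 min, of a mutant with WT, of Mut3 with Mut1 or Mut2 and of the changes, and 7 to 9 in each comparison of salt with 0 min. No share of all features is given for these fits, so the counts cannot be set against it. Leaving out library 0 of Mut2 at 20 min, chosen after seeing the data, gave 2 members in Mut2 against WT and 1 in Mut3 against Mut2 at 20 min. Without 1 library at a time the counts were 0 to 1 in WT, 0 to 2 in Mut1, 0 to 4 in Mut2 and 4 to 7 in Mut3 from 10 to 20 min. Against WT they were 1 to 2 in Mut1 and in Mut2 at 0 min, 1 to 2, 0 to 1 and 0 to 0 at 10 min, and 1 to 2, 1 to 2 and 1 to 1 at 20 min. They were 0 to 1 for Mut3 against Mut1 and against Mut2 at 0 min, 1 to 3 for Mut3 against Mut2 at 20 min, 0 to 1 for the Mut1 change at 20 min and the Mut2 change at 10 min, and 0 to 2 for the Mut2 change at 20 min. A group that lost a library was assumed to vary like the others. The share of all features called in the fits without a library is not given. The member counts of those fits therefore cannot be read as a trait of the members. Depth is unknown, so its effect on low values, such as GSY1 or GPH1 at 0 min, could not be gauged.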
